A study of Mus musculus with 2 samples.

Results

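The monocytes among immune cells of the mouse dorsal root ganglion (DRG) were 138 of 3741 cells, or 3.69% (95% Clopper-Pearson interval 3.11 to 4.34, counting error only). The cells came from naive wild-type mice of the BALB/cAnNRj strain, 3 male and 3 female, that had been perfused with PBS. On average 40 DRGs were pooled, digested with collagenase and dispase and cleared of myelin on Percoll. The suspensions were marked with hashtag antibodies, which tag each cell with its mouse of origin, and live CD45+ cells (DAPI-) were sorted. All 6 mice went into 1 lane of the 10x 3′ v3 assay, so every value below comes from a single library, and the mice were at least 7 weeks old. Nothing separates cells inside vessels that perfusion left behind from cells in the tissue.

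Monocytes were chosen by a rule on raw UMIs (unique molecular identifiers, 1 for each captured mRNA molecule), which had been written on the cells of the male mice. A cell needed at least 5 UMIs of Plac8, Ly6c2, F10, Fn1 and Ms4a4c together and at least 1 UMI of Csf1r, the receptor of the main monocyte and macrophage growth factor. The complement genes C1qa, C1qb and C1qc, which mark macrophages, had to stay under 0.3% of UMIs, and the neutrophil genes S100a8 and S100a9 under 2%. Cells with over 2 UMIs of Cd209a, over 1 UMI of Cd79a or any UMI of Cd3e or Cd3g were left out as dendritic, B or T cells. This gave 110 of the male cells, which are the cells of the authors' filtered matrix. The same rule applied to the 1073 female cells gave another 28, which the rule had not been written on.

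Monocytes are made in the bone marrow from dividing progenitors, circulate in the blood and enter tissues, where they can become macrophages or dendritic cells. In mice, classical monocytes carry high Ly6C and the chemokine receptor CCR2, which lets them leave the marrow and follow CCL2 into tissue. Nonclassical monocytes have little Ly6C, depend on the nuclear receptor Nr4a1 and patrol the inner wall of vessels. In peripheral nerves and ganglia, monocytes are known as a source from which part of the macrophage pool is renewed.

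A monocyte held a median of 11403 UMIs (2638 to 31342) and 2864.5 genes. Summed over the monocytes of a mouse, the depth was 339291, 223705 and 857821 UMIs in male mice 1, 2 and 3, from 27, 20 and 63 cells. It was 189708, 50449 and 139478 UMIs in female mice 1, 2 and 3, from 12, 5 and 11 cells. Levels are given as CPM, a gene's UMIs relative to all UMIs of such a sum, and female mouse 2, with 5 cells, gives the least precise values. The 3′ assay counts 1 tag per molecule and was not scaled for transcript length, and levels were compared for the same gene between cells, not between genes.

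The rule's own genes are given as a description. Plac8, a small protein of myeloid cells, stood at 1939, 2338 and 2463 CPM in male mice 1, 2 and 3 and 2240.3, 2141 and 1642 CPM in female mice 1, 2 and 3. Ly6c2, which encodes the surface antigen Ly6C, stood at 908, 1234 and 1162 CPM in male mice 1, 2 and 3 and 796, 2061 and 652 CPM in female mice 1, 2 and 3, and its highest value was in female mouse 2. Ly6c2 (chr15:75108158-75111970, minus strand, GRCm38) has a near-identical neighbor, Ly6c1 (chr15:75044018-75048830, minus strand), and reads that match both could have been split or dropped, so either level is uncertain. Fn1, the matrix protein fibronectin, stood at 707, 764 and 586 CPM in the male and 1017, 654 and 1004 CPM in the female mice, and F10, coagulation factor X, at 139, 116 and 139 CPM in the male and 200.3, 139 and 14.3 CPM in the female mice. The rule's 5 genes together gave 5 to 225 UMIs a cell, with a median of 56.5 in male and 41 in female monocytes.

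Few cells lay near most of the rule's thresholds. Of the members, 3 had 5 to 7 UMIs of the 5 genes, and 3 male cells with 3 or 4 UMIs passed everything else and stayed outside. The member with the most C1q had 0.219% of its UMIs in the 3 genes, while the nearest cell that failed on C1q alone had 0.429%, with 39 male and 3 female cells in that class. By contrast, 50 male and 19 female cells failed only because no Csf1r UMI was seen, while 1 failed on Cd79a alone and 2 on Cd3e or Cd3g alone.

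A pair of monocyte markers that the rule did not use, S100a4 and Thbs1, is given as a description. The marker list had been chosen with earlier results of these data known, so the pair is no independent check of the label. S100a4, a calcium-binding protein of motile cells, was seen in 92.0% of monocytes and in 0.781% of B cells, which should lack it and give the level of free RNA (median depth 11403 and 3316.5 UMIs). Its level was 931, 1171 and 909 CPM in male mice 1, 2 and 3 and 706, 555 and 574 CPM in female mice 1, 2 and 3. Thbs1, the adhesive glycoprotein thrombospondin 1, was seen in 52.2% of monocytes and 0.781% of B cells, at 295, 215 and 273 CPM in the male and 158, 258 and 86.0 CPM in the female mice. The cDC2 described below held S100a4 as often (92.9% of cells) and no UMI of Thbs1, so of both only Thbs1 sets monocytes apart from them. Both markers were present in all 6 mice, and the label was kept as given.

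Markers of other cell types were mostly low. Of 10 T and NK cell genes, 7 were at 0 in all monocytes (Cd3e, Cd3g, Trbc2, Trac, Gzma, Klrb1c and Ncr1, of which the rule had fixed Cd3e and Cd3g), and the list summed to 8.84, 8.94 and 26.8 CPM in the male and 258, 0 and 71.7 CPM in the female mice, most of it Nkg7. Of 8 B cell genes, 3 were at 0, among them Ms4a1 and Pax5, and the list summed to 165, 197 and 182 CPM in the male and 137, 258 and 215 CPM in the female mice, led by Ighm. Mast cell and basophil genes summed to at most 4.66 CPM in any mouse, with 3 of 6 at 0, and of 6 measured platelet genes 4 were at 0. The cDC1 list summed to 67.8, 35.8 and 51.3 CPM in the male and 10.5, 0 and 21.5 CPM in the female mice, led by Wdfy4, and the cDC2 list to 109, 156 and 119 CPM in the male and 269, 59.5 and 172 CPM in the female mice, led by Mgl2, against 4288 CPM in the Cd209a+ cDC2 described below.

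Some of these lists were not near 0. Neutrophil genes summed to 1011, 1073 and 2049 CPM in the male and 991, 4202 and 681 CPM in the female mice, none of the 11 was at 0 and female mouse 2 was highest. Their most abundant gene, S100a8, was seen in 90.6% of monocytes but also in 83.6% of B cells, which were shallower. The macrophage list, which holds Apoe, summed to 4153, 4546 and 3389 CPM in the male and 2040.0, 1506 and 1986 CPM in the female mice, higher in every male than in every female mouse. The plasmacytoid dendritic cell list, led by the broadly expressed Bst2, summed to 271, 733 and 381 CPM in the male and 148, 317 and 1212 CPM in the female mice. Endothelial and fibroblast genes stayed at or under 16.3 CPM in 5 mice but reached 12131 CPM in female mouse 3, all but a trace of it from 1 cell, in which 14.4% of 18182 UMIs were of Dcn, Lum, Col1a2 and Apod. The tests below between the sexes, against macrophages and against cDC2 were also run without that cell, where 3, 390 and 330 genes passed. The fits over all 6 mice, with the interaction test, were not. Whether any of these genes came from free RNA or from attached cells was not tested.

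The share of monocytes overlapped between male and female mice. The share was 5.61% (27 of 481 cells), 2.59% (20 of 772) and 4.45% (63 of 1415) in male mice 1, 2 and 3. It was 3.14% (12 of 382), 1.6% (5 of 313) and 2.91% (11 of 378) in female mice 1, 2 and 3. The mean was 4.22% ± 1.52 in male and 2.55% ± 0.833 in female mice (SD, n = 3 each), and the groups overlapped, since male mouse 2 lay below female mice 1 and 3. The difference of 1.67 percentage points had p = 0.3 in a 2-sided exact permutation test (p = 0.5 adjusted over 5 tests of shares), where 3 mice against 3 cannot go below 0.1. The male shares are those of the cells the rule was written on. The overlap rests on 12 cells with Retnla, described below, in which the monocyte label is doubtful. Without them 26, 19 and 60 cells were left in male mice 1, 2 and 3 and 8, 5 and 8 in female mice 1, 2 and 3. Every male share then lay above every female share, and this difference was not tested. The share depends on depth, since with every cell thinned to 2000 UMIs the rule found 49 monocytes and the mean over the 6 mice was 1.26% in place of 3.38%. The thinned shares were 1.83% in male and 0.684% in female mice on average and did not overlap (exact permutation p = 0.1, the smallest it can give).

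**Figure D1:**
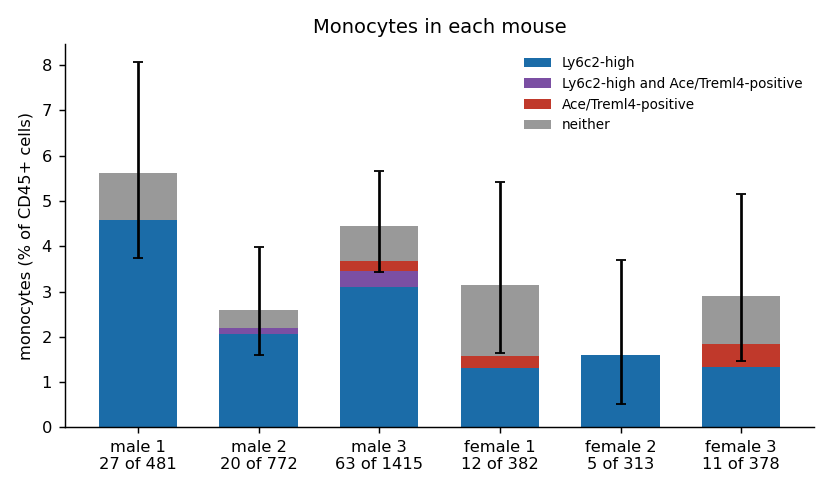
Share of monocytes among CD45+ cells of each mouse in percent, stacked by Ly6c2 and by Ace or Treml4, with 95% Clopper-Pearson intervals of the whole share (counting error only) and the number of cells under each bar. The 3 male mice lay between 2.59% and 5.61% and the 3 female mice between 1.6% and 3.14%.

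In 4 of 6 mice most monocytes were of the Ly6c2-high kind. Of the 138 cells, 36 held at least 20 UMIs of Ly6c2, 42 held 10 to 19, 25 held 4 to 9, only 8 held 1 to 3 and 27 held none. With at least 4 UMIs of Ly6c2 and none of Ace or Treml4 taken as Ly6c2-high, 97 cells (70.3%, 95% interval 61.9 to 77.8) fell in this group, 22, 16 and 44 in male mice 1, 2 and 3 and 5 in each female mouse. This was 81.5%, 80% and 69.8% of the monocytes of male mice 1, 2 and 3 and 41.7%, 100% and 45.5% of those of female mice 1, 2 and 3. They were 3.25% ± 1.26 of CD45+ cells in male and 1.41% ± 0.163 in female mice (SD, n = 3 each). The 3 male shares all lay above the 3 female shares, and the exact permutation test gave p = 0.1, the smallest it can give (p = 0.5 adjusted over the 5 tests). Another 6 cells (4.35%) were Ace/Treml4-positive without Ly6c2, 6 had both, and 29 (21.0%) had neither.

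The Ly6c2-high cells carried the genes known for classical monocytes, and are described from the 72 that lacked the granule and cell cycle genes described next. Ccr2 stood at 1237 CPM (95% interval 1159 to 1319.8) in these 72 cells, and was seen in 72 of them, against 1.95% of B cells. The interval covers counting error only, as do the intervals of all groups of cells below. F13a1, the A chain of coagulation factor XIII, stood at 625 CPM and Thbs1 at 455 CPM. Hp, which encodes the hemoglobin-binding haptoglobin, stood at 1079 CPM and the glutathione transferase Mgst1 at 788 CPM. Lyz2, the lysozyme of myeloid cells, was among the most abundant at 34724 CPM. The MHC class II genes were low, with H2-Aa at 777 and Cd74 at 2649.8 CPM. A few cells carried much of this, since Cd74, H2-Aa, H2-Ab1 and H2-Eb1 made up a median of 0.0678% of a cell's UMIs (0 to 7.66%).

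A group of monocytes in all 6 mice held transcripts of neutrophil granule proteins together with genes of the cell cycle. These thresholds were set after the values had been seen, and the group is a description. Granule cells were those with at least 10 UMIs of Mpo, Elane, Prtn3 and Ctsg together, which encode myeloperoxidase, neutrophil elastase, proteinase 3 and cathepsin G, proteins made at the progenitor stages of granulocytes and monocytes in bone marrow. There were 27, with 4, 2 and 14 in male mice 1, 2 and 3 and 4, 2 and 1 in female mice 1, 2 and 3. Cycling cells were those with at least 0.25% of UMIs in 12 cell cycle genes, and there were 25, of which 24 were also granule cells. Together 28 cells, 20.3% of monocytes, were in either class, and 25 of them were Ly6c2-high.

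The 28 cells were deep, with a median of 21766 UMIs against 10278 in the other 72 Ly6c2-high cells. The grouping itself fixed that the 4 granule genes were high in the former and low in the latter. Elane stood at 2938 CPM in the 28 cells and 14.7 CPM in the 72. Prtn3 stood at 3138 against 66.7 CPM, Mpo at 1193 against 1.33 CPM and Ctsg at 714 against 4.0 CPM. Ms4a3, which the grouping had not used and which marks granulocyte and monocyte progenitors, stood at 188 CPM and at 0 in the other cells. In 10 cells, which came from all 6 mice, the 4 granule genes gave at least 100 UMIs, and the highest cell, in female mouse 1, had 1313 of its 24927 UMIs (5.27%) in them. Among 256 B cells, none had 10 UMIs of these genes and 4.3% had any, and none of the 167 macrophages or 85 cDC2 compared below had 10. Outside the monocytes 32 of 3603 cells (0.888%) had 10 or more.

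The cell cycle genes were likewise fixed by the grouping, with the topoisomerase Top2a at 634 against 2.67 CPM, the replication factor Pclaf at 1043 against 5.34 CPM and the microtubule regulator Stmn1 at 1116 against 32.0 CPM. Among genes it had not used, Irf8, a transcription factor that directs progenitors toward monocytes and dendritic cells, stood at 586 against 184 CPM. Genes of mature monocytes were lower in the 28 cells. Lyz2 stood at 12641 against 34724 CPM, Ccr2 at 462 against 1237 CPM and Thbs1 at 81.9 against 455 CPM. Ly6c2 did not follow them, at 1473 against 1243 CPM. Apoe, a gene of the macrophage list, was lower too, at 221 against 3313 CPM.

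**Figure D2:**
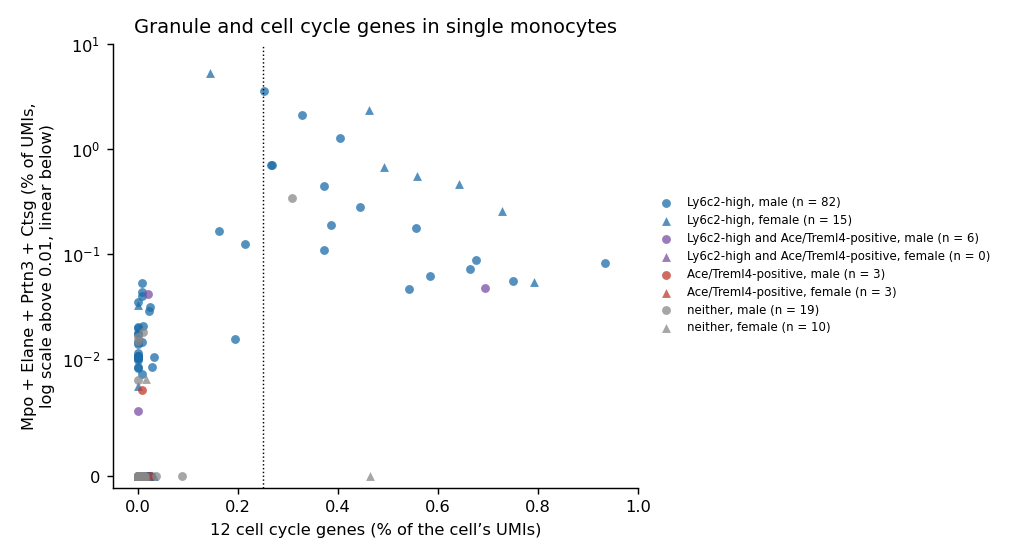
Each point is 1 of 138 monocytes, with the share of its UMIs in 12 cell cycle genes in percent on the x axis and in Mpo, Elane, Prtn3 and Ctsg in percent on the y axis (log scale above 0.01, linear below), colored by Ly6c2 and by Ace or Treml4, circles male and triangles female. Of the 25 cells right of the dotted line at 0.25%, 24 were granule cells, and 22 of those were Ly6c2-high.

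The promoters of the 4 granule genes are shown because these genes define the granule cells. Each sequence runs from 250 bases before to 50 after the RefSeq start (GRCm38.p6), and capitals mark matches on either strand to the letters GAGGAA, a core of the motif of the myeloid factor PU.1, and AACGG, a core of the motif of MYB. Elane lies at chr10:79886062-79886361 and Prtn3 at chr10:79879417-79879716, both on the plus strand and neighbors on the chromosome, Mpo at chr11:87793534-87793833 on the plus strand and Ctsg at chr14:56102525-56102824 on the minus strand.
Elane: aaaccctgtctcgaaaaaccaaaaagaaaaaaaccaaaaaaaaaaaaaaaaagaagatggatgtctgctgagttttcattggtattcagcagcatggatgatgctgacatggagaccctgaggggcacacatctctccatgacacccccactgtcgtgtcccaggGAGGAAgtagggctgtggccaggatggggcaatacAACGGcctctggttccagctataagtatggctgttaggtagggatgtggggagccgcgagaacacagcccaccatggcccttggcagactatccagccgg
Prtn3: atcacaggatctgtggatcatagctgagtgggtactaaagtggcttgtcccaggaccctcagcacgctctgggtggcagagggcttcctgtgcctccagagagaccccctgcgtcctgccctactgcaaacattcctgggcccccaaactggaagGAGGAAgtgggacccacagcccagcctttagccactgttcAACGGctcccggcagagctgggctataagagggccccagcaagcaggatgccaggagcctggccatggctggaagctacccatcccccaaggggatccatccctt
Mpo: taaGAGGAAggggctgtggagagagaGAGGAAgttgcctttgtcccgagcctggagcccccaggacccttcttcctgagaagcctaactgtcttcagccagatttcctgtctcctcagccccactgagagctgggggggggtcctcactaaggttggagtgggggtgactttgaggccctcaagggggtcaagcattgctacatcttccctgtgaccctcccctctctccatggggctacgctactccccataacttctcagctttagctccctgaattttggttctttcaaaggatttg
Ctsg: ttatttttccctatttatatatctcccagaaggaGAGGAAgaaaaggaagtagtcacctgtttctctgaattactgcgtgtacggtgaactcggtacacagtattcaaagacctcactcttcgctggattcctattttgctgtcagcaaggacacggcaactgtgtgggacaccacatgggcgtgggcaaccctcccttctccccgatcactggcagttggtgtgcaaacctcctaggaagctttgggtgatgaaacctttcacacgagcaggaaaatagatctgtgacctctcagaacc
All 4 held GAGGAA, with 2 matches in Mpo and 1 in each of the others, while 28.1% of 32544 promoters of 300 bases held it. AACGG matched in Elane and Prtn3, against 17.4% of all promoters, and 4.91% held both motifs. A match is a run of letters and not a binding site.

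In sums over all monocytes of a mouse, the granule genes varied widely, and the female values of Elane and Prtn3 all lay above the male values, where 16.2% of all genes tested between the sexes did not overlap in either direction. Elane stood at 64.8, 215 and 1022 CPM in male mice 1, 2 and 3 and 3157, 1090.2 and 1491 CPM in female mice 1, 2 and 3. Prtn3 stood at 339, 339.7 and 968 CPM in the male and 3310.3, 1407 and 1814 CPM in the female mice. Mpo stood at 215, 134 and 395 CPM in the male and 854, 139 and 868 CPM in the female mice, where female mouse 2 overlapped with the male mice. In female mouse 1 a single cell held 1313 UMIs of the 4 genes, and its other granule cells held 11 to 135. The only granule cell of female mouse 3 held 642. The granule sums of these 2 mice thus rest mostly on 1 cell each. These cells were left out only together with all granule and cycling cells, where female mouse 2 gave no sum, and not on their own. None of the 4 genes passed the test between the sexes over all genes, which is given below.

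The Ace/Treml4-positive monocytes were few and lay in 3 of 6 mice, with 3 cells in male mouse 3, 1 in female mouse 1 and 2 in female mouse 3. Ace encodes angiotensin-converting enzyme and Treml4 a receptor of the TREM family, and both mark nonclassical monocytes. Their number depends on the rule, since 47 of 3603 cells outside it (1.30%) also had a UMI of Ace or Treml4, 4 of them among cells with over 1% C1q. The minimum of 5 cells a sum left no mouse with such a sum, so no test against the Ly6c2-high cells was run, and values are given with counting error only. One of the cells in female mouse 3 was the cell with fibroblast genes, and the other 5 are described. Their Ace stood at 570.3 CPM (95% interval 365 to 849) and Treml4 at 166 CPM (95% interval 66.9 to 343), which the grouping itself had fixed.

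Genes that the grouping had not used stood with them. Nr4a1, which nonclassical monocytes need for their survival, stood at 1164 CPM (95% interval 861 to 1539) against 478 CPM in the 72 Ly6c2-high cells. Of its 49 UMIs 40 came from 2 of the 5 cells, and the others held 4 of 4265, 4 of 11430 and 1 of 4030 UMIs. Nr4a1 is also a gene that responds to tissue digestion, and the share of that in its level was not tested. Spn, the sialophorin CD43 by which nonclassical monocytes are sorted, stood at 261 against 22.7 CPM, and Itgal, the integrin chain of LFA-1 that holds them to the endothelium, at 261 against 33.4 CPM. Spn was at 0 in 2 of the 5 cells, of which one had a single Treml4 UMI, no Ace and 7.11% of its UMIs in MHC class II genes, so the 5 cells were not alike. The fatty acid binding protein Fabp4 stood at 452 against 0 CPM, the enolase Eno3 at 428 against 2.67 CPM, Pglyrp1 at 665 against 65.4 CPM and Gngt2 at 1236 against 58.7 CPM. Cd300e stood at 166 against 0 CPM and Adgre4 at 285 against 24 CPM. The classical gene Ccr2 lay the other way, at 23.8 against 1237 CPM.

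The 6 cells with at least 4 UMIs of Ly6c2 and a UMI of Ace or Treml4 were all from male mice, 1 in male mouse 2 and 5 in male mouse 3. Their Ly6c2 stood at 1414 CPM, near the 1389 CPM of all Ly6c2-high cells. Ace stood at 52.4 CPM, lower than in the 5 cells without Ly6c2. Treml4 stood at 105 CPM, inside the counting interval given above for those 5 cells. The groups had been chosen by these genes. Ccr2 stood at 772 CPM, Nr4a1 at 432 CPM and Spn at 65.5 CPM. Of these 6 cells, 1 was also a granule and cycling cell, and it held 19 of their 33 Nr4a1 UMIs and 3 of their 5 Spn UMIs.

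The 29 monocytes with under 4 UMIs of Ly6c2 and none of Ace or Treml4 were of several kinds, and 2 of them were among the granule or cycling cells. A group of 12 held at least 10 UMIs of Retnla, which encodes the secreted resistin-like molecule alpha, a product of alternatively activated and of some tissue macrophages. This threshold too was set after the values had been seen. They lay in 5 mice, with 1, 1 and 3 cells in male mice 1, 2 and 3, 4 in female mouse 1, none in female mouse 2 and 3 in female mouse 3. Ly6c2 was at 0 UMIs in all 12, Fcrls and Ccr2 were seen in all 12 (in 7.42% and 1.95% of B cells) and Cx3cr1 in none.

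Retnla stood at 10297 CPM (95% interval 9803 to 10809) in these 12 cells. They had passed the monocyte rule mostly through Fn1, at 2598 CPM against 829 CPM in the 72 Ly6c2-high cells, while Plac8 stood at 6.31 CPM, less than in any other group of monocytes. Fcrls, an Fc receptor-like scavenger gene of resident macrophages, stood at 1526 CPM, the ribonuclease Ear2 at 624 CPM and the chemokine Ccl6 at 4918 CPM. Their MHC class II genes were high, with H2-Aa at 8348 and Cd74 at 22914 CPM against 777 and 2649.8 CPM in the Ly6c2-high cells, and Apoe was low at 454 against 3313 CPM. Of the 12 cells, 9 also held at least 10 UMIs of Lyz1, which stood at 12510.1 CPM against 10.7 CPM. Lyz1 (chr10:117287797-117292868) and Lyz2 (chr10:117277331-117282321, both on the minus strand, GRCm38) are near-identical neighbors, so how reads were shared between them is uncertain.

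Retnla at 10 or more UMIs was not limited to monocytes, since 16 of 3603 other cells (0.444%) had it, 6 of them among the Cd209a+ cDC2 and 8 among cells with over 1% C1q. Per mouse, Retnla stood at 242, 268 and 451 CPM in male mice 1, 2 and 3 and 2525, 0 and 4502 CPM in female mice 1, 2 and 3, in female mice 1 and 3 above all male mice and in female mouse 2 at 0. The plain cell count gave 7 of 28 female and 5 of 110 male monocytes with at least 10 UMIs. In view of Fcrls and MHC class II, the monocyte label does not rest on its leading markers in these 12 cells, and they are called by Retnla here.

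Another 15 Ly6c2-low cells had neither many Retnla UMIs nor granule or cell cycle genes, 4, 2 and 7 in male mice 1, 2 and 3 and 2 in female mouse 1. Apoe, a lipid carrier that macrophages make in bulk, stood at 11328 CPM in them, against 3313 CPM in the 72 Ly6c2-high cells and 30914 CPM in the macrophages below. H2-Aa stood at 7378 against 777 CPM, but the 15 cells were not alike in this. Cd74, H2-Aa, H2-Ab1 and H2-Eb1 together made up a median of 0.716% of a cell's UMIs, from 0.0151% to 9.33%. A single cell of male mouse 3 held 2227 UMIs of them. Plac8, at 1213 CPM, and Ccr2, at 756 CPM, were still present.

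**Figure D3:**
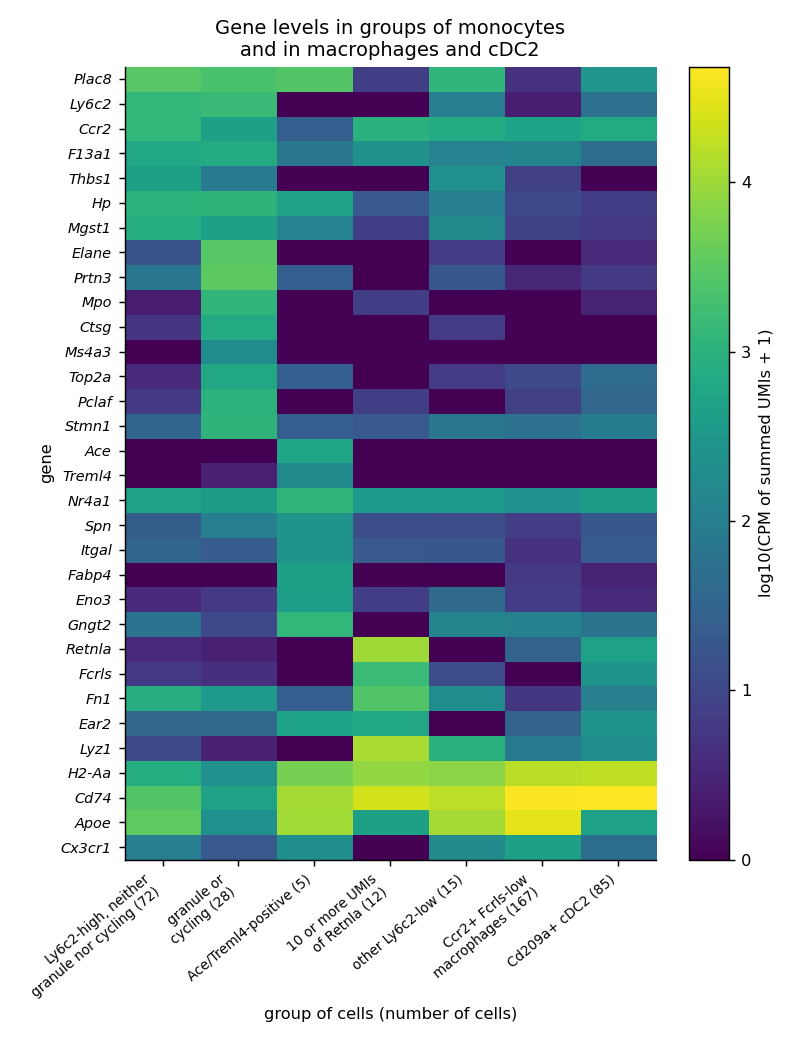
Level of 32 genes, as log10 of CPM of summed UMIs plus 1, in 5 groups of monocytes and in Ccr2+ Fcrls-low macrophages and Cd209a+ cDC2, with the number of cells under each column. Elane and Top2a were high in the granule or cycling cells, which were chosen by them, Nr4a1 and Spn in the Ace/Treml4-positive cells, Retnla and Fcrls in the 12 Retnla cells and Apoe in the other Ly6c2-low cells and the macrophages.

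Beyond these groups, the monocytes of all mice shared further genes. Cebpb, a transcription factor that Ly6c2-low monocytes depend on, stood at 4439, 4479 and 3347 CPM in the male and 2894, 3984 and 2179.6 CPM in the female mice, and Spi1, which encodes PU.1, at 327, 299.5 and 363 CPM in the male and 274, 297 and 237 CPM in the female mice. The cytokine gene Il1b, the precursor of interleukin 1 beta, stood at 805, 925 and 480.3 CPM in the male and 289.9, 496 and 244 CPM in the female mice, and Cxcl2, a chemokine that draws neutrophils, at 5597, 4095 and 3117 CPM in the male and 2151, 5867 and 4237 CPM in the female mice. Cxcl2 and the 15 genes of the dissociation response, such as Fos and Jun, can be raised by enzyme digestion at warm temperature, and the latter summed to 12131, 12427 and 8299 CPM in the male and 7823, 9990.3 and 8955 CPM in the female mice. Il6 was represented by 23 UMIs and Il10 by 10 UMIs over all 138 cells.

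The MHC class II genes varied widely between mice. Cd74, the invariant chain that guides MHC class II molecules to the endosome, stood at 4910.2, 5359.7 and 4894 CPM in the male and 6431, 278 and 7356 CPM in the female mice, and H2-Aa at 1798, 2651 and 1801 CPM in the male and 2256, 178 and 2803 CPM in the female mice. Female mouse 2, whose 5 monocytes were all Ly6c2-high, was far below the rest, and its 5 cells held 32 UMIs of Cd74, H2-Aa, H2-Ab1 and H2-Eb1 together. In female mouse 1 the 4 Retnla cells described above held 2093 of 2143 such UMIs and in female mouse 3 the 3 Retnla cells held 1340 of 1843. Without the Retnla cells these 4 genes stood at 367, 634 and 5191 CPM in female mice 1, 2 and 3 and at 6704, 8153 and 6965 CPM in male mice 1, 2 and 3. Over all monocytes the list of 9 genes summed in female mouse 2 to 852 CPM, against 9252 to 14977 CPM in the other mice. The interferon response list of 15 genes went the other way, with 3053 CPM in female mouse 2 and 509 to 1421 CPM in the others. Its genes include Isg15 and Irf7, which type I interferon raises. The 12 growth factor receptors summed to between 1223 and 1649 CPM in the 6 mice, and Csf2rb, the shared chain of the GM-CSF and IL-3 receptors, stood at 58.9, 62.6 and 73.4 CPM in the male and 42.2, 59.5 and 50.2 CPM in the female mice.

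To see which genes set monocytes apart from the macrophages closest to them, monocytes were compared with macrophages that held Ccr2 and lacked Fcrls. These were cells with at least 1% of UMIs in the C1q genes, at least 1 UMI of Ccr2, none of Fcrls and the rule's limits on other lineages, 167 in all (124 male, 43 female). The genes of both gates were left out of the test. The test was run in the 3 female mice, on which the thresholds had not been set, with edgeR's quasi-likelihood test on UMIs summed per mouse and Benjamini-Hochberg adjustment. Because the gates differ in C1q, genes that follow C1q from cell to cell are not independent of them.

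In this comparison 364 of 1515 genes (24%) passed an adjusted p of 0.05, 140 higher (9.24%) and 224 lower (14.8%) in monocytes, and 362 went the same way in every mouse. The counts rest much on female mouse 1, without which 155 genes passed, while leaving out female mouse 2 or 3 gave 308 and 300. In the male mice, whose cells the rule was written on, 362 of the 364 genes could be tested, 360 had the same direction and 323 passed. Without granule and cycling cells, where female mouse 2 also fell under 5 monocytes and gave no sum, 203 genes passed. A gene can pass the filter on low counts through the cells in which it is high, so the counts and medians of gene lists below describe the tested members only. A lower level per monocyte and fewer monocytes that express a gene cannot be told apart in these sums.

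The genes with the largest folds toward monocytes were those of the granule and of division. Prtn3 stood at 3310.3, 1407 and 1814 CPM against 0, 0 and 0 CPM in the macrophages of female mice 1, 2 and 3 (952 UMIs against 0, at least 249-fold higher against a floor of 3 UMIs over the group, adjusted p = 0.000104). Elane was at least 226-fold, Mpo at least 75.9-fold and Ctsg at least 57.6-fold higher, all with 0 UMIs in the macrophages. Among the 10 leading genes were also the histone gene Hist1h2ap (at least 50.8-fold), Top2a (at least 33.3-fold) and Cdca8 of the mitotic spindle (at least 16-fold). Of 12 myeloid progenitor and 12 cell cycle genes, 4 and 5 passed the filter on low counts, and all of these rose. Since the filter let them in through their counts in monocytes, their number is not evidence about the lists. Of the monocytes behind these sums, 7 of 28 were granule cells. Most UMIs of the 4 granule genes came from 2 of them, with 1313 in female mouse 1 and 642 in female mouse 3. The other granule cells held 11 to 136. The other leading genes were Ly6c1 (at least 27.8-fold), the paralog of Ly6c2 with which it may share reads, Rasgrp2, an activator of integrins (at least 16.5-fold), and Ass1, an enzyme of arginine synthesis (at least 27.2-fold).

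Genes of mature classical monocytes were higher as well. Of the 20 genes of the Ly6c2-high list, 10 passed the filter and were tested, of which 6 rose and 2 fell, with a median of 3.61 log2 against 0.02 over all genes tested. Hp stood at 843, 1348 and 387 CPM against 0, 22.3 and 10.4 CPM (log2 fold change 5.83 ± 0.71 (SE), adjusted p = 0.000291) and Mgst1 at 422, 833 and 337 CPM against 0, 0 and 10.4 CPM (6.47 ± 0.74 (SE), adjusted p = 0.000215). For both genes every female mouse had more in monocytes than any had in macrophages, as held in either direction for 40.3% of all genes tested. Gda (4.10), Ifitm6 (3.95) and Mcemp1 (3.26) rose too, and the 2 that fell were Tmem176b (-3.53) and the chemokine Pf4 (-6.43), both also known from macrophages.

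The S100, galectin, annexin and motility genes leaned toward monocytes, with all 17 tested, 8 higher, none lower and a median of 1.08 log2. S100a4, one of the marker genes outside the rule, stood at 706, 555 and 574 CPM against 80.1, 22.3 and 187 CPM (2.29 ± 0.45 (SE), adjusted p = 0.00448), and the call was lost without female mouse 1 (2.04). Lgals3, which encodes galectin 3, rose by 3.06 ± 0.30 and Anxa2, a plasminogen-binding annexin, by 2.67 ± 0.34 (log2 ± SE). Tmsb10, S100a6, Lsp1, S100a10 and S100a11 rose by 2.49, 2.16, 1.84, 1.62 and 1.46.

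Adhesion and homing genes moved both ways, with 13 of 21 tested, 4 higher and 3 lower. Itgb7, an integrin chain that pairs with alpha 4 for homing, rose by 4.6 ± 0.61 (log2 ± SE). The chemokine receptor Cx3cr1 (-3.84 ± 0.55) and the adhesion molecule Icam1 (-2.67 ± 0.60) fell, and Icam1 lost its call without granule and cycling cells (-1.64). Ccr1 (log2 1.80) lost its call without female mouse 2 (1.52). Itga4 (1.27) lost its call with the mouse as a block, with DESeq2 and without any one of the 3 mice (0.96 to 1.67).

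Resident macrophage genes that could be tested were lower in monocytes, 12 of 12 (of 18 on the list), with a median of -3.46 log2. Some, such as Trem2, Pf4 and Ms4a7, were near 0 in monocytes and passed the filter through macrophages, so this number is not evidence about the list. Apoe stood at 1439, 1348 and 1262 CPM against 21564, 39861 and 22529 CPM (-4.77 ± 0.30 (SE), adjusted p = 1.40e-05). Trem2, a lipid receptor of macrophages, stood at 10.5, 19.8 and 14.3 CPM against 329, 637 and 519 CPM (-5.46 ± 0.45 (SE), adjusted p = 4.96e-05), and the transcription factor Maf fell by 3.52 log2. Of the 10 genes with the largest folds toward macrophages, Hpgd, which degrades prostaglandins, had 0 UMIs against 108 (at least 45.8-fold lower). The others were Pf4 (-6.43), the receptor Gpr34 (-6.04), Pmepa1 (-5.90), the TNF family ligand Tnfsf9 (-5.76), the heparan sulfate proteoglycan Sdc4 (-5.56), the chemokine Ccl12 (-5.47), Trem2, Tmem37 (-5.44) and Ms4a7 (-5.42).

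Antigen presentation and inflammatory genes were lower too. Of 9 MHC class II genes 7 were tested and 6 fell, with a median of -3.46 log2, and H2-Aa stood at 2256, 178 and 2803 CPM against 18824, 18574 and 16393 CPM (-3.67 ± 0.64 (SE), adjusted p = 0.00231). Cd74 fell by 3.78 log2, a call that was lost without female mouse 1 (-4.03). H2-DMa (-1.63) and H2-DMb1 (-1.78) lost theirs without female mouse 1 (-1.62 and -1.69) and without granule and cycling cells (-0.64 and -0.60). With the Retnla cells left out the folds of H2-Aa (-5.35) and Cd74 (-5.89) were larger and passed. Of 20 cytokine and chemokine genes 11 were tested, 7 fell and 1 rose. Il1b stood at 289.9, 496 and 244 CPM against 3372, 1239.7 and 2658 CPM (-3.29 ± 0.37 (SE), adjusted p = 0.000203) and Tnf at 52.7, 99.1 and 7.17 CPM against 436, 101 and 353 CPM (-3.14 ± 0.65 (SE), adjusted p = 0.00563). Ccl2, the ligand of CCR2, fell by 2.95, Cxcl16 by 5.23 and Cxcl2 by 2.33 log2. Ccl3 and Ccl4 (-3.97 and -3.75) lost their calls without female mouse 1 (-3.03 and -3.20) or 3 (-3.13 and -2.61), as did Ccl6, the gene that rose and that lost its call also without the Retnla cells, at 0.47 (1.77, without these mice 1.65 and 1.31).

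Of 16 pattern recognition genes 7 were tested and 5 fell, among them the lipopolysaccharide co-receptor Cd14 (-2.03 ± 0.20) and the inhibitory Fc receptor Fcgr2b (-2.09 ± 0.27, log2 ± SE). The others were Fcgr3, Fcer1g and Nlrp3, whose calls were less stable. Fcgr3 lost its call without female mouse 1 (-1.36) and without granule and cycling cells (-0.24). Fcer1g lost it in the same settings (-0.96 and -0.69) and without the filter on low counts (-0.79), and Nlrp3 without female mouse 3 (-2.22). The dissociation response genes also lay toward macrophages, with 13 of 15 tested, 8 lower and none higher, although both cell types had been digested together. The part of digestion in the cytokine differences was not tested. Of 22 transcription factors 15 were tested, 6 fell and Irf8 rose (1.52 ± 0.41 (SE), adjusted p = 0.0218). The Irf8 call was lost without female mouse 1 (1.38) or 3 (1.62) and in the male mice (0.46), and without granule and cycling cells (and the sum of female mouse 2) the fold was -0.28. Of the factors that fell, Spi1 (-0.82) lost its call with the mouse as a block, with DESeq2 and without any one of the 3 mice. Klf6 (-0.82) lost it with DESeq2 and without female mouse 1 or 2 and stood at -0.22 without granule and cycling cells, Pou2f2 (-1.34) with DESeq2 and without female mouse 1 or 3, and Runx1 (-1.72) without female mouse 1 (-1.43). None of 4 tested interferon response genes (of 15) and none of 4 growth factor receptors (of 12) passed.

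**Figure D4:**
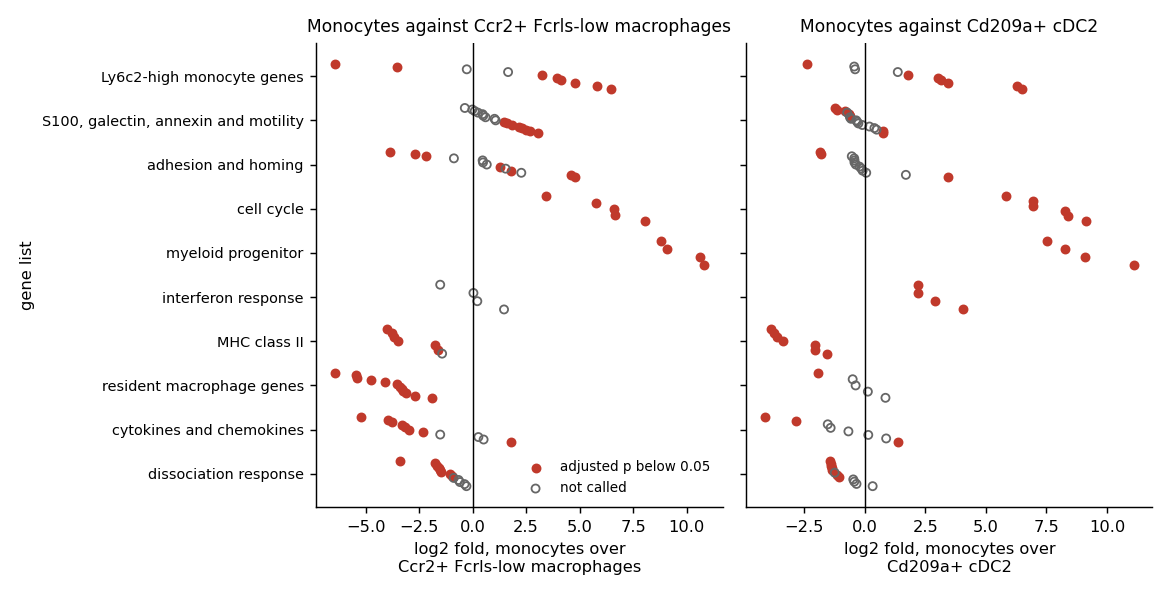
Log2 fold change of each tested gene of 10 gene lists in the female mice, monocytes over Ccr2+ Fcrls-low macrophages (left) and over Cd209a+ cDC2 (right), with filled red points for adjusted p below 0.05 (edgeR) and open points for the rest. Progenitor and cell cycle genes lay right of 0 and MHC class II genes left of 0 in both, while resident macrophage genes lay left of 0 against macrophages.

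The other comparison was with conventional dendritic cells of type 2 (cDC2), here cells with at least 3 UMIs of Cd209a, under 0.3% of UMIs in C1q and the rule's other limits, 85 in all (51 male, 34 female). In the same design 339 of 2038 genes (16.6%) passed, 150 higher (7.36%) and 189 lower (9.27%) in monocytes, and 338 went the same way in every mouse. Without female mouse 1, 2 or 3 the number was 199, 222 and 295, and without granule and cycling cells, which again left out the monocyte sum of female mouse 2, it was 139. In the male mice 332 of the 339 genes could be tested, 321 had the same direction and 215 passed. Both comparisons use the same monocyte sums, so they are not independent of each other.

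Granule genes led this comparison as well, with Prtn3 at 3310.3, 1407 and 1814 CPM against 0, 0 and 0 CPM (at least 364-fold higher, adjusted p = 2.14e-05) and Ctsg at least 84.1-fold higher. Elane, with 862 UMIs against 2, gave a pooled ratio of 495 (counting interval 136 to 4090), and Mpo had 290 UMIs against 1. Pclaf (at least 86.1-fold), the histone genes Hist1h2ap (at least 74.2-fold) and Hist1h1b (at least 20.7-fold), Top2a (at least 48.6-fold) and Birc5 (at least 43.6-fold) followed. Of 12 progenitor and 12 cell cycle genes 4 and 6 were tested and all rose, with the same limit as above. Most of the granule UMIs again came from the same 2 cells. In the male mice 4 of these 6 cell cycle genes, Top2a, Stmn1, Birc5 and Mki67, did not pass (1.09, 1.08, 0.46 and 0.42 log2). Thbs1, the marker outside the rule, stood at 158, 258 and 86.0 CPM against 0, 0 and 0 CPM (55 UMIs against 0, at least 21.0-fold higher, adjusted p = 0.00119). With no UMI in any cDC2 it passed the filter through monocytes, so this is no independent check of the label.

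Classical monocyte genes were again higher, 6 of the 10 tested, with 1 lower (Tmem176b, -2.40) and a median of 2.41 log2 against 0.01 over all genes. Hp rose by 6.49 ± 0.64, Mgst1 by 6.28 ± 0.59, F13a1 by 3.15 ± 0.60 and Lyz2 by 1.80 ± 0.32 (log2 ± SE). Lyz2 stood at 20421, 21348 and 16167 CPM against 8068, 2672 and 3627 CPM, without overlap, which 34.4% of all genes tested also showed. Among the transcription factors Irf8 stood at 385, 753 and 366 CPM against 6.01, 13.7 and 40.5 CPM (4.36 ± 0.50 (SE), adjusted p = 0.000195). In a joint fit of both sexes its fold was 4.34 log2 in the female but 1.16 in the male mice, a difference that itself passed, and 1.09 (adjusted p = 0.112, edgeR) over both sexes without granule and cycling cells and the sum of female mouse 2. Cebpb rose by 1.48 ± 0.22.

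S100a4 did not pass the test against cDC2, at 706, 555 and 574 CPM against 685, 927 and 801 CPM (log2 fold change -0.61, adjusted p = 0.0651). The whole motility list moved both ways, 2 of 17 higher and 5 lower with a median of -0.35 log2, and of these only Lsp1 (-1.22 ± 0.17) kept its call under every alternative. Vim (-0.81) lost it without female mouse 2 (-0.66) or 3 (-0.75), and Lgals3 (0.77), Tmsb10 (0.76) and S100a6 (-0.67) without any one of the 3 mice. S100a6 also lost its call with the mouse as a block and turned to the other sign in the male mice (0.028).

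MHC class II genes were lower than in cDC2, all 7 that were tested, with a median of -3.36 log2. H2-Eb1 stood at 1270.4, 79.3 and 1455 CPM against 9798, 13304 and 13827 CPM (-3.86 ± 0.58 (SE), adjusted p = 0.00101) and Cd74 at 6431, 278 and 7356 CPM against 46271, 59602 and 58846 CPM (-3.75 ± 0.75 (SE), adjusted p = 0.00496). The loading chaperones H2-DMa, H2-DMb1 and H2-DMb2 lost their calls without female mouse 1 (-1.54, -2.0 and -2.07), and H2-DMa and H2-DMb2 also without granule and cycling cells (-0.63 and -0.95). Among the 10 leading genes toward cDC2, Slamf7 had 0 UMIs against 72 (at least 20.9-fold lower) and Slc27a3 0 against 45 (at least 13.1-fold lower). The lectins Mgl2 (-4.96) and Cd209d (-4.05), Cxcl16 (-4.13), Basp1 (-3.65), H2-Aa (-3.62) and the oxysterol receptor Gpr183 (-3.42) were the rest. Cd209d is a paralog of the gate gene Cd209a.

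All 4 tested interferon response genes were higher in monocytes than in cDC2, with a median of 2.55 log2. Irf7, a driver of type I interferon genes, stood at 105, 377 and 86.0 CPM against 12, 6.87 and 0 CPM (4.04 ± 0.82 (SE), adjusted p = 0.00531), with the highest value in female mouse 2, and Ifi44 rose by 2.90 ± 0.58. Ifi204 (2.18) lost its call without female mouse 2 (1.73). Of 8 tested cytokine and chemokine genes, Il1b (-2.85 ± 0.35) and Cxcl16 fell and Cxcl2 rose (1.36). The Cxcl2 call was lost with the mouse as a block (1.37) and without female mouse 2 (0.93) or 3 (1.03). Clec4e, a lectin that senses fungal and mycobacterial lipids, rose by 2.93 ± 0.64 and Fcgr2b fell by 2.66 ± 0.23.

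Few genes differed between male and female monocytes. In 6 sums, 3 of 2924 genes (0.103%) passed edgeR's quasi-likelihood test, 2 higher (0.0684%) and 1 lower (0.0342%) in male mice, while 293 had an unadjusted p under 0.05 and DESeq2 called 6. The number was 27 without female mouse 2 and 8 without male mouse 3. The gene that was lower was Xist, the noncoding RNA of the inactive X chromosome, which checks the hashtag labels, at 0, 4.47 and 1.17 CPM in male mice 1, 2 and 3 and 374, 535 and 581 CPM in female mice 1, 2 and 3. The values of 473 genes (16.2%) did not overlap between the sexes.

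Apoe (chr7:19696109-19699188, minus strand, GRCm38) stood at 3658, 4166 and 3069 CPM in male mice 1, 2 and 3 and 1439, 1348 and 1262 CPM in female mice 1, 2 and 3. Every male mouse lay above every female mouse, 3631 ± 549 CPM (SD, n = 3) against 1349.6 ± 88.6 CPM (SD, n = 3), and the log2 fold change was 1.42 ± 0.15 (SE), adjusted p = 0.00169. Apoe passed in 13 of 13 alternatives. It was seen in 98.6% of monocytes but also in 96.1% of B cells.

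These values moved together with the makeup of the monocytes. Apoe was low in the granule or cycling and the Retnla cells (221 and 454 CPM), which were 8 and 7 of 28 female but 20 and 5 of 110 male monocytes, and high in the 15 other Ly6c2-low cells (11328 CPM), of which 13 were male. The myeloid progenitor list summed to 787, 773 and 2774 CPM in the male and 8487, 3191 and 5019 CPM in the female mice, and the cell cycle list to 1117, 943 and 1802 CPM in the male and 2994, 3033 and 1441 CPM in the female mice. Apoe passed with granule and cycling cells left out, among 75 genes in 5 sums. That setting also lost female mouse 2, so the part of those cells alone was not tested. With the Retnla cells left out Apoe passed too, among 16 genes in 6 sums. The part of the other Ly6c2-low cells, and of free RNA from macrophages, in this difference was not tested. The 5 tested progenitor genes had a median of -2.10 log2, male over female, against 0.00487 over all genes. In female mice 1 and 3 the progenitor values rest mostly on 1 cell each.

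**Figure D5:**
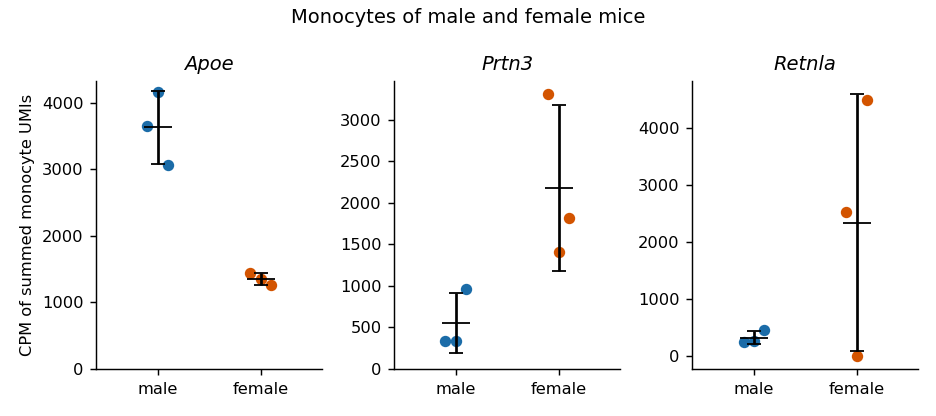
CPM of summed monocyte UMIs in each of 3 male and 3 female mice for Apoe, Prtn3 and Retnla, with the mean and SD as bars. Apoe did not overlap between the sexes, while all female values of Prtn3 lay above the male values and Retnla varied from 0 to 4502 CPM, and neither of these passed the test over all genes. The Prtn3 values of female mice 1 and 3 rest mostly on 1 cell each.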

How the data were processed

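scRNA-seq was done on CD45+ DRG cells of 6 mice. The authors deposited raw UMI counts of 2668 cells and 16819 gene symbols (all with a male hashtag) and Cell Ranger output with gene and hashtag counts of 4395 barcodes. Per the submitters' processing notes the genome was mm10 and the tools were Cell Ranger and Seurat, and the deposited output names Cell Ranger 3.1.0. No entry differed between both matrices. HTODemux (Seurat 5.3.0, R 4.3.3, positive quantile 0.99) on all barcodes, followed by the authors' filters (over 200 and under 5000 genes, under 5% mitochondrial UMIs), returned the 2668 deposited cells and 1073 female cells, 3741 in all, while 269 barcodes with several hashtags and 101 with none were left out. Sex was taken from the deposited hashtag description, and each hashtag was taken as a mouse. Further doublets were marked with Scrublet (scanpy 1.11.5), 63 of 4111 barcodes, and left out in an alternative.

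UMI counts were summed per mouse and gate (at least 5 cells a sum), filtered with filterByExpr, scaled by TMM and tested with edgeR 4.0.16 (quasi-likelihood, Benjamini-Hochberg, threshold 0.05). The comparisons with macrophages and cDC2 left out the genes of the gates. The test between the sexes kept them, although the rule had been written on the male cells. SE is the fold divided by the root of the F statistic. CPM in the text are of raw sums, and log2 folds are on the TMM scale. Folds given as "at least" and the pooled ratio are of raw sums without TMM. The TMM factors were 1.10 to 1.18 for monocytes and 0.848 to 0.894 for macrophages. Against cDC2 they were 1.05 to 1.12 for monocytes and 0.89 to 0.982 for cDC2. On the TMM scale the "at least" folds toward monocytes would thus be smaller. Shares carry Clopper-Pearson intervals and levels of pooled cells exact Poisson intervals at 95%, both for counting error only. Shares were tested with exact permutation tests (scipy 1.17.1). The steps were tested on simulated data. Sums of the same mouse come from the same animal. Their deviations correlated at 0.0805, -0.0169 and 0.0197 (macrophages) and 0.019, -0.0109 and 0.00619 (cDC2) in female mice 1, 2 and 3, and a fit with the mouse as a block was an alternative.

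The cells, gates and gene lists were chosen with earlier results of these data known. The genes named are those of the lists and, for each comparison and direction, the 10 largest folds of genes that passed and changed the same way in every mouse (for sex, without overlap). Alternatives were DESeq2 1.42.0, no filter, leaving out each mouse, the mouse as a block, Scrublet, a stricter rule, the male mice, all 6 mice, and, added after the data were seen, leaving out the cell with fibroblast genes, the granule and cycling cells or the Retnla cells. The planned test of Ace/Treml4-positive against Ly6c2-high cells was not run, since no mouse had 5 of the former. Results of some genes are not reported here.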

Additional observations from a re-analysis of the deposited data

Results flagged for a closer look

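Of the 269 barcodes with at least 2 hashtags, which no comparison used, 9 met the monocyte rule (3.35%, where a count of 3 would give 1.12%), with a median of 10489 UMIs. None of the 101 barcodes without a hashtag did, which allows a share of up to 2.97%. These barcodes could not be given to a mouse.

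For 5 of 3132 genes the difference between monocytes and cDC2 itself differed between male and female mice, by an interaction term in edgeR's quasi-likelihood test (274 had an unadjusted p under 0.05). Apoe (difference of log2 folds, male minus female, 2.31 ± 0.43 SE, adjusted p = 0.0423) and Hopx (2.44 ± 0.47, adjusted p = 0.0423) differed in the same direction. Irf8 (-3.19 ± 0.60, adjusted p = 0.0423) and the tubulin gene Tubb5 (-1.88 ± 0.32, adjusted p = 0.0316) differed the other way. The male cells are those the rule was written on, and the part of granule, cycling and Retnla cells in these differences was not tested. Against macrophages no gene of 2806 passed the same test (188 had an unadjusted p under 0.05).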

How the results depend on the processing

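The number of genes past the threshold varied with the settings. Between the sexes 3 genes passed, against 6 with DESeq2, 198 without a filter on low counts, 26 with at least 8 UMIs of the rule genes, 75 without granule and cycling cells, 16 without the Retnla cells and 2 to 27 when each mouse was left out in turn. The settings with at least 8 UMIs and without granule and cycling cells also lose the monocyte sum of female mouse 2, here and below, since it then had under 5 cells. Leaving out that mouse alone gave 27 genes between the sexes, 308 against macrophages and 222 against cDC2. Against macrophages 364 passed, against 636 without the filter, 1107 in the 3 male mice, 846 in all 6 mice (845 with the mouse as a block), 203 without granule and cycling cells (660 over both sexes) and 155 to 308 when each mouse was left out. Against cDC2 339 passed, against 225 with DESeq2, 584 without the filter, 577 in the 3 male mice, 643 in all 6 mice (590 with the mouse as a block), 139 without granule and cycling cells (520 over both sexes) and 199 to 295 when each mouse was left out. With the mouse as a replicate block in the female mice, 336 genes passed against macrophages and 283 against cDC2. Without the Retnla cells 389 passed against macrophages (320 shared with the 364) and 450 against cDC2 (315 shared with the 339). The 6 Ace/Treml4-positive cells were 3 in the male mice alone, and 3 to 6 when each mouse was left out. The share difference of 1.67 points stayed positive at 0.972 to 2.48, with p of 0.1 to 0.6, and with cells thinned to 2000 UMIs it was 1.14 at a mean share of 1.26%. Irf8 against macrophages turned to -0.28 without granule and cycling cells (-0.042 over both sexes), and S100a6 against cDC2 to 0.028 in the male mice and to 0.12 and 0.18 without those cells, in the female mice and over both sexes. The cause was not tested. Among the other named genes no direction changed. With S100a6 and Irf8 included, calls were lost in 1 or more alternatives for 27 genes against cDC2, 19 against macrophages and 1 between the sexes. Depth limits mostly female mouse 2, with 5 monocytes and 50449 UMIs.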
